A study of Mus musculus with 6 samples.

Results

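Many of the Rab, Snx and Vps genes code for proteins that direct membrane vesicles between the compartments of a cell. All protein-coding genes of the mouse GRCm38 annotation whose symbol begins with Rab, Snx or Vps followed by a digit were taken, which gave 134 of 21896 genes: 69 Rab, 30 Snx and 35 Vps genes. The rule rests on names alone and uses no measured value, though it was chosen with earlier results of these data known. It also takes in genes with other roles, such as those of the VPS13 proteins, which carry lipids between membranes. Rab proteins are small GTPases that mark a membrane in their GTP-bound form and recruit tethers and motors, sorting nexins bind phosphoinositides on endosomes through a PX domain, and Vps genes, named after yeast mutants that missort vacuolar proteins, encode subunits of the retromer, ESCRT, HOPS, CORVET, GARP and EARP complexes among others. Microfold (M) cells of the gut are known for transcytosis, the uptake of particles at the lumen and their release on the other side of the epithelium, which runs through this machinery.

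The measure was chromatin accessibility by bulk ATAC-seq, which uses the Tn5 transposase to tag open DNA, in mouse small-intestinal organoids, epithelial cultures grown in a gel. RANKL organoids had 3 days of 3 µM CHIR99021, a GSK3 inhibitor, with 1.5 mM valproic acid, a histone deacetylase inhibitor, then 1 day of ENR medium and then 100 ng/ml of RANKL, the cytokine that drives M cell differentiation, for 6 days. Control organoids were kept in ENR medium, which holds EGF, Noggin and R-spondin 1, and were taken at day 6. The labels do not say whether controls had CHIR99021 and valproic acid. Names of the control libraries open with an unexplained prefix, CVENR, which may bear on this, so RANKL and its pretreatment cannot be told apart. Each group had 3 libraries of 50000 cells. All 6 came from 1 organoid line of a female Lgr5GFPDTR/+ mouse, labelled wild type and carrying a GFP and diphtheria toxin receptor allele at Lgr5, so no second animal or line was sampled. Replicates were separate differentiation experiments, numbered 1 to 3 in both groups.

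Reads had been counted in 55056 windows of 200 bp, and each window was given to the protein-coding gene with the nearest end (start or end of the gene) within 50 kb, which placed 38490 windows (69.9%). Window totals were 322173, 466521 and 828445 in RANKL replicates 1, 2 and 3, and 920681, 976881 and 455083 in control replicates 1, 2 and 3. All 16 epithelial markers had a window, and 14 had enough counts to be tested. Of the 14, 3 (Krt18, Lgr5 and Olfm4) were lower in RANKL and the other 11 did not pass the test. The 16 summed to 1588 to 1779 CPM (counts per 1000000 counts of the table) in RANKL and 1897 to 1952 CPM in controls. Among 11 tested M cell markers, Marcksl1, Msln, Sox8 and Tnfrsf11a were higher in RANKL and Atoh8 lower, with sums of 1042 to 1282 CPM in RANKL and 797 to 953 CPM in controls. Of 12 haematopoietic markers 6 had no window (among them Cd3e, Cd68 and Lyz2), the rest summing to 133 to 196 CPM in RANKL and 134 to 151 CPM in controls, with 1 of 3 tested, Zap70, higher (log2 fold change 1.20). Mesenchymal markers summed to 246 to 317 CPM in RANKL and 216 to 286 CPM in controls, with 1 of 5 tested higher. Endothelial markers summed to 270 to 323 CPM in RANKL and 333 to 402 CPM in controls, with 1 of 4 tested higher and 1 lower, and neural markers to 133 to 145 CPM in RANKL and 202 to 226 CPM in controls, with the only tested gene, Snap25, lower. The part these cell types play in the results was not tested, and in bulk libraries a change in the share of a cell type and a change of accessibility within cells cannot be told apart.

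Accessibility around the Rab, Snx and Vps genes changed in RANKL organoids at a few members, in both directions. Of the 134 genes 127 had at least 1 window, 324 windows in all, and 115 genes passed the filter on low counts (57 Rab, 28 Snx and 30 Vps). Summed per gene, 7 were higher in RANKL (Rab11fip4, Rab22a, Rab30, Rab8a, Rab3d, Rab40b and Vps45) and 7 lower (Vps37a, Snx18, Vps50, Vps13d, Rab3b, Snx13 and Rab18) at an adjusted p of at most 0.05 by edgeR's quasi-likelihood test. That is 6.09% of the tested members in each direction, against 6.97% of all 12466 tested genes higher and 8.50% lower. The shares are near or under those of genes in general, so the members as a whole did not stand out. The median log2 fold change, RANKL over control, was 0.03 over the tested members and 0.01 over all tested genes. In 33 members (28.7%) the RANKL libraries all lay on the same side of the controls, 20 above and 13 below, against 30.5% of all genes.

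These counts moved with the libraries used, and so did those over all genes. With the experiment number as a block, which pairs the libraries by the labels' experiment, 4 members (3.48%) were higher and 6 (5.22%) lower, against 5.66% and 7.16% of all genes. The number of higher members was 3 without RANKL replicate 2 (2.52%, against 5.08% of all genes), 2 without control replicate 1 (1.77%, against 4.68%), 4 without control replicate 2 (3.54%, against 5.04%) and 4 without control replicate 3 (3.31%, against 6.11%). The number of lower members was 3 without RANKL replicate 3 (2.70%, against 5.72% of all genes). DESeq2 called Rab11fip4 and Rab22a higher (1.74% of members, against 3.26% of all genes) and Snx18, Vps37a and Vps50 lower (2.61%, against 3.91%). The other 9 called genes lost their call by DESeq2, with adjusted p from 0.0555 for Vps45 to 0.184 for Rab40b: it was 0.0724 for Vps13d, 0.0740 for Rab3b, 0.0913 for Rab30, 0.120 for Snx13, 0.132 for Rab18, 0.160 for Rab8a and 0.163 for Rab3d.

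**Figure D1:**
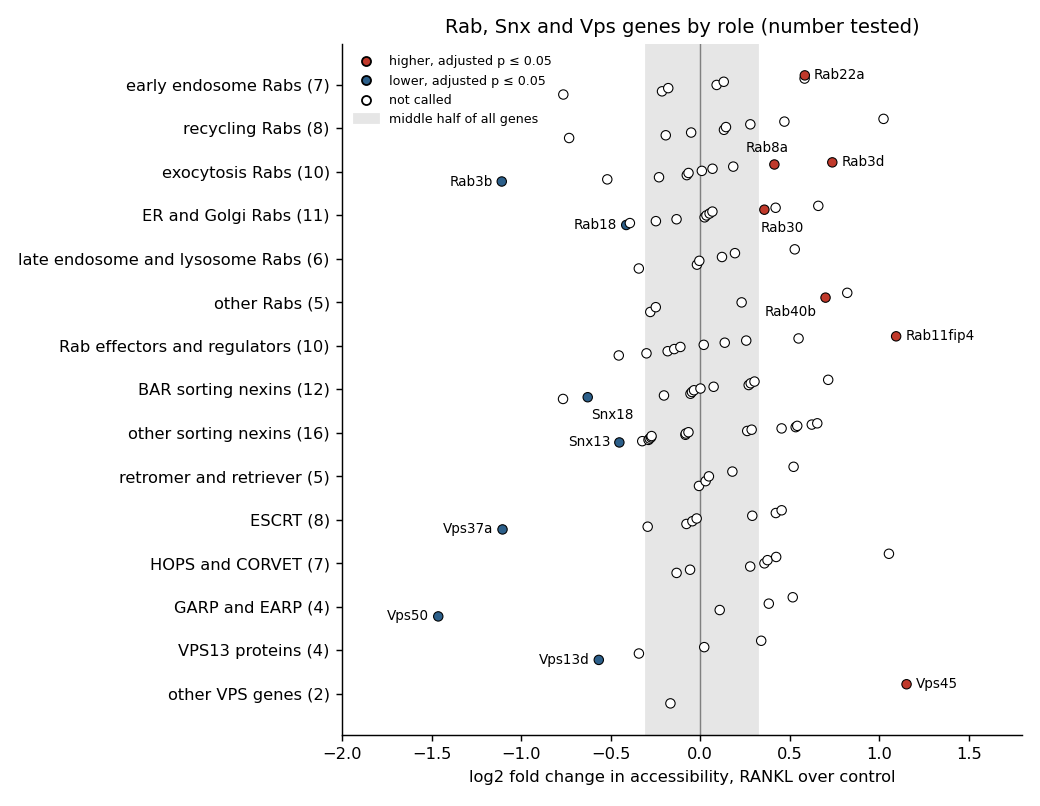
Log2 fold change in summed accessibility (horizontal axis, RANKL over control) of the 115 tested genes, one point per gene, in rows by the role of the protein with the number tested in brackets. Red points were called higher, blue ones lower and white ones not called, and the grey band spans the quartiles of all 12466 tested genes, -0.30 to 0.32. Most members lie in or near the band, and calls are spread over 11 of the 15 roles, with 1 to 3 each.

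Some members could not be tested. The 12 with windows but too few reads had 0 to 24 counts per library, and 7 genes (Rab19, Rab34, Rab7b, Snx17, Snx31, Vps26b and Vps9d1) had no window within reach. Of the 127 genes with windows 43 rested on 1 window, the median was 2 and the most, 8, belonged to Rab10. By family, 6 of 57 Rab genes were higher (10.5%) and 2 lower (3.51%), and 0 of 28 Snx genes were higher and 2 lower (7.14%). Of 30 Vps genes 1 was higher (3.33%) and 3 lower (10.0%). Over all tested genes 6.97% were higher and 8.50% lower, and these shares also stand beside the counts by role below. Among Snx genes 1 was higher at an unadjusted p under 0.05 by edgeR, and DESeq2 called 0 higher and 1 lower. Whether the families differ was not tested.

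**Figure D2:**
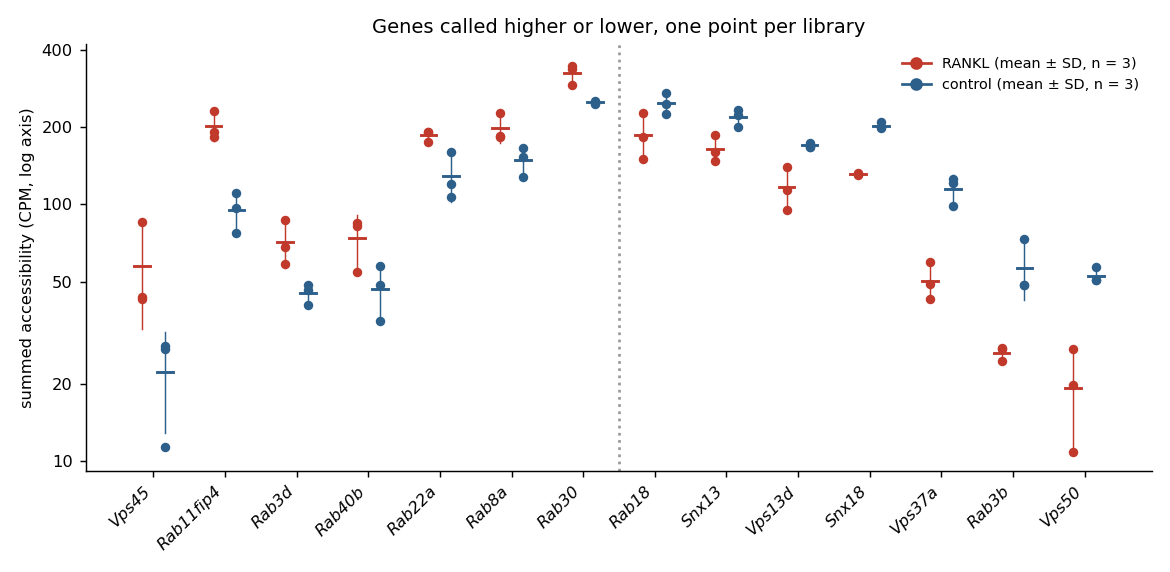
Summed accessibility of the 14 called genes in CPM (log axis), RANKL libraries in red left of control libraries in blue, with bars for the mean ± SD (n = 3). Genes left of the dotted line were called higher in RANKL and those right of it lower; Rab40b and Rab18 are the only called genes whose groups overlap.

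Rab11fip4, a Rab11-binding effector of recycling endosomes, gave the smallest p of all members. The gene (chr11:79591021-79698016) had 230.2, 183 and 191 CPM in RANKL libraries and 77.6, 96.8 and 111 CPM in controls, where CPM uses the library sizes of the gene table. Every RANKL library stood well above every control. The log2 fold change was 1.09 ± 0.17 (SE), edgeR adjusted p = 3.59e-08, and the call held in all 15 alternatives in which the gene could be tested, from 0.72 to 1.19. All 6 of its windows were higher on average in RANKL and 2 of them were called. The window 43367 bp inside the nearest gene end had 44.7, 43.3 and 42.6 CPM in RANKL and 11.5, 21.0 and 22.6 CPM in controls (log2 fold change 1.27). The window 13284 bp outside the gene had 69.2, 40.4 and 36.0 CPM in RANKL and 15.8, 14.5 and 19.8 CPM in controls (log2 fold change 1.48). Both windows kept the groups apart, but the adjusted p of the inner one was 0.0736 without RANKL replicate 3 and 0.106 without control replicate 1, and that of the outer one 0.0508 without RANKL replicate 1 (edgeR). A window 20910 bp outside the gene, too shallow to test, held 7, 5 and 21 counts in RANKL and 2, 0 and 0 counts in controls.

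The other Rab11 effectors did not pass the test. Rab11fip3 stood at 0.55 on the log2 scale (edgeR adjusted p = 0.0624) and Rab11fip2 at 0.02. Rab11fip5 had -0.46 (edgeR adjusted p = 0.151) and Rab11fip1 had -0.30 ± 0.20 (edgeR adjusted p = 0.322). Rab11fip2, Rab11fip3 and Rab11fip5 are named for their kinship with Rab11fip4, after their values were seen. Of the 10 tested effectors and regulators with a Rab symbol, Rab11fip4 was the only one called.

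Among the recycling Rabs, which return cargo to the plasma membrane, 0 of 8 tested genes were called by edgeR or by DESeq2, and 1 was lower at an unadjusted p under 0.05. Rab11a, the main recycling Rab, had 27.3, 13.6 and 38.3 CPM in RANKL and 33.8, 37.9 and 19.9 CPM in controls, and the groups overlapped (log2 fold change -0.19 ± 0.40). Rab25, its epithelial relative, had 39.0, 24.6 and 21.4 CPM in RANKL and 8.46, 18.3 and 11.4 CPM in controls. The groups of Rab25 did not overlap, but its average log2 CPM in the edgeR fit was the lowest of the tested members, and its log2 fold change of 1.02 ± 0.54 missed the threshold (edgeR adjusted p = 0.193). Rab17, which acts in transcytosis of polarised epithelial cells, had 39.0, 46.4 and 29.1 CPM in RANKL and 52.2, 66.7 and 65.5 CPM in controls. RANKL libraries of Rab17 lay below all controls, with a log2 difference of -0.73 ± 0.31 (edgeR adjusted p = 0.0842). Rab17 was called lower by edgeR in a fit on windows over 1 kb from any gene end alone.

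Among the early endosome Rabs, 1 of 7 was called. Rab22a (chr2:173659836-173702186), a Rab5 relative that sorts endocytosed cargo, had 191, 175 and 191 CPM in RANKL and 107, 120.4 and 159 CPM in controls. The log2 fold change was 0.58 ± 0.16 (edgeR adjusted p = 0.00514), and the groups did not overlap. The adjusted p was 0.0513 without RANKL replicate 3 and 0.0918 without control replicate 1. Of its 3 windows 1 was called, 20526 bp inside the gene (chr2:173680263-173680462), and it had 28.5, 26.0 and 39.3 CPM in RANKL and 4.30, 1.32 and 5.66 CPM in controls. This window was nearly closed in controls: its log2 fold change was 3.18 ± 0.64, edgeR adjusted p = 2.17e-05, and it was called in all 10 alternatives that could test it. The window at the gene's end stood at 0.40 on the log2 scale and was not called (edgeR adjusted p = 0.155).

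Rab5a, which governs fusion of early endosomes, had 199, 128 and 146 CPM in RANKL and 158, 173 and 197 CPM in controls (log2 fold change -0.18 ± 0.16, edgeR adjusted p = 0.488). Its groups overlapped. Rab5c, its paralog, which rested on 1 window, had 70.2, 92.8 and 96.5 CPM in RANKL and 62.1, 53.6 and 65.5 CPM in controls, which did not overlap, but the gene sum missed the threshold at a log2 difference of 0.58 ± 0.23 (edgeR adjusted p = 0.0704). Rab7, the late endosome Rab, had 78.0, 62.8 and 65.9 CPM in RANKL and 77.6, 58.9 and 42.7 CPM in controls, again overlapping (log2 fold change 0.12 ± 0.25). Of the 6 tested late endosome and lysosome Rabs 0 were called by edgeR or DESeq2 and 0 had an unadjusted p under 0.05.

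The exocytosis Rabs, which carry vesicles to the plasma membrane, moved both ways: Rab3d and Rab8a were higher and Rab3b lower among 10 tested. Rab8a (chr8:72161200-72181366), which serves apical and ciliary delivery, had 226, 183 and 185 CPM in RANKL and 152, 128 and 165 CPM in controls. Rab3d (chr9:21907491-21918199), which marks secretory granules, had 58.5, 68.2 and 87.3 CPM in RANKL and 46.5, 40.6 and 48.4 CPM in controls. In both genes the groups did not overlap, with log2 fold changes of 0.41 ± 0.15 (edgeR adjusted p = 0.0494) for Rab8a and 0.74 ± 0.27 (edgeR adjusted p = 0.0422) for Rab3d. Both calls were at the edge of the threshold. With the experiment number as a block the adjusted p was 0.0859 for Rab8a and 0.111 for Rab3d. For Rab8a the adjusted p was 0.165, 0.0682 and 0.0797 without RANKL replicates 1, 2 and 3, and 0.0935 and 0.300 without control replicates 1 and 2 (edgeR). For Rab3d it was 0.0593 and 0.361 without RANKL replicates 2 and 3, and 0.0883, 0.161 and 0.0525 without control replicates 1, 2 and 3 (edgeR).

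Rab3b (chr4:108879070-108943324), a Rab of regulated secretion, had 27.3, 24.6 and 27.6 CPM in RANKL and 73.3, 48.4 and 48.4 CPM in controls. It fell by 1.11 ± 0.34 on the log2 scale (edgeR adjusted p = 0.0118), with RANKL libraries close together and under every control, and all 3 of its windows were lower on average. The adjusted p was 0.0529 without RANKL replicate 3 and 0.171 without control replicate 1 (edgeR). Rab10, of basolateral transport, was the most accessible member, with 312, 336 and 343 CPM in RANKL and 371, 392.4 and 419 CPM in controls. Its RANKL libraries lay below the controls without passing the main test (log2 fold change -0.23 ± 0.11, edgeR adjusted p = 0.158). Rab10 was called lower by edgeR in 2-kb windows and with windows up to 200 kb away. Rab27b, of secretory lysosome and exosome release, overlapped between groups, with 50.7, 100.9 and 52.1 CPM in RANKL and 74.8, 90.3 and 28.5 CPM in controls. Rab8b, the paralog of Rab8a, was the only member with windows called in both directions and its sum had a log2 fold change of 0.07 ± 0.24. The window at its start had 57.0, 80.8 and 60.6 CPM in RANKL and 40.1, 31.6 and 53.8 CPM in controls. The window 12393 bp inside the gene had 8.14, 11.5 and 13.1 CPM in RANKL and 30.1, 31.6 and 28.3 CPM in controls. Log2 fold changes were 0.73 ± 0.28 at the start (edgeR adjusted p = 0.0461) and -1.37 ± 0.50 inside (edgeR adjusted p = 0.0346). Neither window overlapped between groups. Both calls were lost with the experiment as a block (edgeR adjusted p = 0.0772 at the start and 0.0692 inside). The call at the start was also lost without RANKL replicates 2 or 3 or control replicates 1 or 2 (edgeR adjusted p = 0.0766 to 0.264), and that inside without any 1 of the 6 libraries (0.0523 to 0.148).

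Of the 11 tested ER and Golgi Rabs 1 was higher and 1 lower. Rab30 (chr7:92741637-92844535), a Golgi Rab, had 347, 336 and 293 CPM in RANKL and 247, 249 and 253 CPM in controls, with no overlap (log2 fold change 0.36 ± 0.12, edgeR adjusted p = 0.0311). Of its 7 windows 1 was called, 7013 bp inside the nearer gene end (chr7:92837423-92837622), and it had 73.2, 57.7 and 60.6 CPM in RANKL and 10.0, 7.89 and 2.83 CPM in controls. This window was called in all 12 alternatives, with a log2 fold change of 3.00 ± 0.43 and an edgeR adjusted p of 4.22e-10, while the window at the other end of Rab30, among the strongest of all members, stood at 0.13 on the log2 scale (edgeR adjusted p = 0.617). The call of the Rab30 sum was lost without RANKL replicate 1 (edgeR adjusted p = 0.0914), without RANKL replicate 2 (0.112), without control replicate 1 (0.101) and without control replicate 2 (0.111).

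Rab18, of the ER and lipid droplets, had 226.3, 150.1 and 184 CPM in RANKL and 225.7, 246 and 271 CPM in controls. RANKL replicate 1 just passed control replicate 1, the other RANKL libraries were below all controls, and the log2 fold change was -0.41 ± 0.14 (edgeR adjusted p = 0.0265). The adjusted p was 0.209 and 0.0919 without RANKL replicates 2 and 3, and 0.0870 and 0.0853 without control replicates 2 and 3 (edgeR). Rab40b, which belongs to ubiquitin ligase complexes and was the only called gene of the 5 other tested Rabs, had 54.6, 84.6 and 82.7 CPM in RANKL and 35.3, 57.6 and 48.4 CPM in controls. RANKL replicate 1 lay below control replicate 2, and the log2 fold change of 0.70 ± 0.26 (edgeR adjusted p = 0.0490) held in 4 of 16 alternatives. With the experiment number as a block the adjusted p of Rab40b was 0.110. It was 0.160 and 0.243 without RANKL replicates 2 and 3, and 0.282 and 0.0699 without control replicates 1 and 3 (edgeR).

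**Figure D3:**
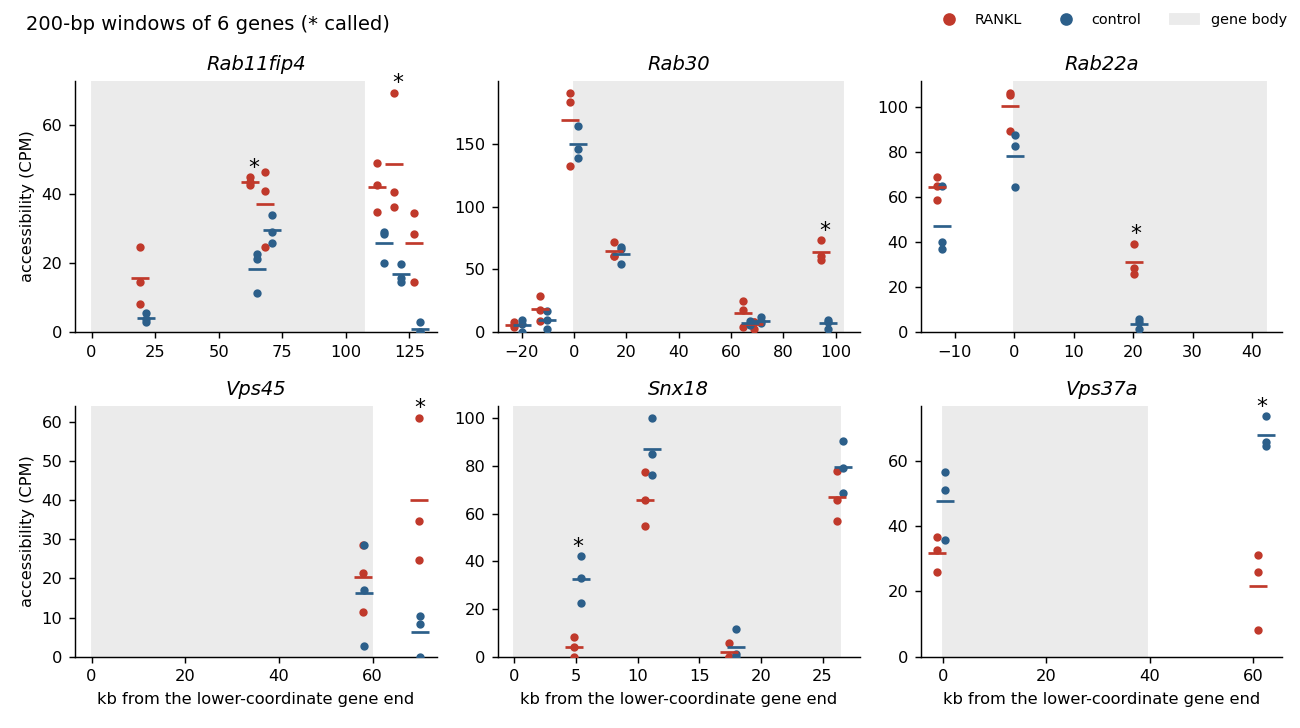
Accessibility of each 200-bp window in CPM (vertical axis, linear) against its distance in kb from the lower-coordinate end of 6 genes, with RANKL libraries in red left of controls in blue, short lines for the group means, the gene body in grey and a star over called windows. In Rab30, Rab22a, Vps45, Snx18 and Vps37a 1 window each is called, while all 6 windows of Rab11fip4 are higher on average in RANKL.

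Of the 28 tested Snx genes Snx18 and Snx13 were called lower and 0 higher, where 8.50% of all tested genes were lower and 6.97% higher. Snx18 (chr13:113592179-113618564), a BAR-domain nexin that remodels membrane in endocytosis and autophagy, had 133, 131 and 130.2 CPM in RANKL and 210.1, 198 and 199 CPM in controls. The libraries of each group were close together and far from the other group: the log2 fold change was -0.63 ± 0.16, edgeR adjusted p = 0.00148, and the call held with every library left out. Its window 5115 bp inside the gene (chr13:113597195-113597394) had 4.07, 0 and 8.19 CPM in RANKL and 32.9, 42.1 and 22.6 CPM in controls. That window fell by 2.73 ± 0.59 on the log2 scale (edgeR adjusted p = 7.85e-05) and was called in all 9 alternatives that could test it. Snx13, a nexin with an RGS domain found at ER contact sites, had 160, 186 and 147 CPM in RANKL and 233, 224 and 199 CPM in controls (log2 fold change -0.45 ± 0.15, edgeR adjusted p = 0.0197). Its groups did not overlap, and none of its 3 tested windows was called by edgeR. The adjusted p of Snx13 was 0.0745 with the experiment as a block, 0.207 without RANKL replicate 3, 0.112 without control replicate 1 and 0.0790 without control replicate 2 (edgeR).

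The sorting nexins of interest for endocytosis and recycling stayed uncalled. Snx9, a BAR nexin that binds dynamin, had 125, 221 and 190 CPM in RANKL and 158, 162 and 122 CPM in controls, overlapping (log2 fold change 0.28 ± 0.15, edgeR adjusted p = 0.221). A window 3141 bp outside Snx9 was called higher (0.90 ± 0.33, edgeR adjusted p = 0.0387) with overlapping libraries of 20.3, 75.04 and 52.4 CPM in RANKL and 22.9, 30.3 and 31.1 CPM in controls. That call was lost with the experiment as a block (edgeR adjusted p = 0.111) and without any 1 library but RANKL replicate 1 (0.0521 to 0.374). Snx1, of the retromer-linked tubules, had a log2 fold change of -0.05 ± 0.21, and Snx27, which recycles receptors with retromer, had 0.29 ± 0.39. Over the 12 tested BAR nexins the median log2 fold change was -0.02, and over the 16 others it was -0.07.

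The retromer, which retrieves cargo from endosomes, and its relative the retriever had 0 of 5 tested genes called by edgeR or DESeq2, and 0 with an unadjusted p under 0.05. Vps35, the core of retromer, had 62.4, 57.3 and 39.8 CPM in RANKL and 57.8, 47.1 and 45.6 CPM in controls, with overlap and a log2 fold change of -0.01 ± 0.29. Vps26a, its partner, had 27.3, 62.8 and 68.9 CPM in RANKL and 56.4, 44.5 and 51.3 CPM in controls (log2 fold change 0.18 ± 0.28). Its RANKL libraries spread more than its controls.

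In ESCRT, the machinery that forms vesicles inside late endosomes, 1 of 8 tested genes was called. Vps37a (chr8:40511742-40551134), a subunit of ESCRT-I, had 42.9, 49.1 and 59.7 CPM in RANKL and 98.7, 122 and 125 CPM in controls. It fell by 1.11 ± 0.23 on the log2 scale (edgeR adjusted p = 6.33e-05), every RANKL library being far below every control, and the call held with every library left out. The assignment of its windows is less firm than the change: 1 lay in the body of Cnot7 and 386 bp from Vps37a, and the called one (chr8:40573413-40573612) in the body of Mtmr7, 22378 bp from the end of Vps37a and 25313 bp from that of Mtmr7. This window had 8.14, 26.0 and 31.1 CPM in RANKL and 64.4, 65.8 and 73.6 CPM in controls, fell by 1.44 ± 0.32 (edgeR adjusted p = 0.000119) and was called in all 12 alternatives. Given to the gene body that holds them, the windows left Vps37a with no value. The paralog Vps37b had 109, 98.2 and 110.3 CPM in RANKL and 95.9, 75.9 and 91.1 CPM in controls, which did not overlap, without a call (0.29 ± 0.21, edgeR adjusted p = 0.375). Vps4b, the ATPase that disassembles ESCRT, had 70.2, 46.4 and 59.7 CPM in RANKL and 63.5, 61.5 and 51.3 CPM in controls, overlapping (-0.04 ± 0.27).

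HOPS and CORVET, the tethers for fusion with lysosomes and endosomes, had 0 of 7 tested genes called by edgeR or DESeq2 and 1 higher at an unadjusted p under 0.05. Their median log2 fold change was 0.36, against 0.01 over all tested genes. Of the 7, 5 were above 0, as were 6329 of all 12466 tested genes. GARP and EARP, which tether vesicles at the Golgi and at recycling endosomes, had 1 of 4 called. Vps50 (chr6:3498393-3603531), the subunit that sets EARP apart, had 27.3, 10.9 and 19.9 CPM in RANKL and 50.8, 51.0 and 57.0 CPM in controls. With no overlap it fell by 1.46 ± 0.39 (edgeR adjusted p = 0.00266), the largest fall among the members in 200-bp windows. The call held with every library left out, but in 2-kb windows the log2 fold change was -0.47 (edgeR adjusted p = 0.171), and with the libraries thinned to the same depth it was -1.16 (edgeR adjusted p = 0.117). Its called window, 11541 bp inside Vps50, lay 11612 bp from an end of Hepacam2, so the nearest end was nearer by little. That window had 12.2, 2.89 and 8.19 CPM in RANKL and 28.6, 27.6 and 31.1 CPM in controls (-1.91 ± 0.58, edgeR adjusted p = 0.00808). The window's adjusted p was 0.0584 and 0.0569 without RANKL replicates 2 and 3, and 0.0528 and 0.0517 without control replicates 1 and 2 (edgeR).

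The VPS13 proteins carry lipids between membranes, and Vps13d, which acts at mitochondria and peroxisomes, was lower. The gene (chr4:144871045-145195037) had 140.4, 95.5 and 113 CPM in RANKL and 168, 167 and 174 CPM in controls, no RANKL library reaching a control (-0.57 ± 0.17, edgeR adjusted p = 0.0113). The fall was spread over its windows, 5 of 6 being lower on average and none called, and the adjusted p was 0.0932 without RANKL replicate 2 and 0.0643 without RANKL replicate 3 (edgeR). Vps13b, a Golgi member of the group, overlapped between groups, with 42.9, 30.0 and 38.3 CPM in RANKL and 39.5, 61.5 and 34.2 CPM in controls (-0.34 ± 0.33). Vps45 (chr3:95999832-96059661), a Sec1/Munc18 protein that drives SNARE assembly on endosomes, had 85.8, 43.7 and 42.9 CPM in RANKL and 28.2, 27.5 and 11.4 CPM in controls. It rose by 1.15 ± 0.36 on the log2 scale (edgeR adjusted p = 0.0152), the highest value among the members, without overlap. The call of the gene was lost without RANKL replicate 1 (edgeR adjusted p = 0.179) and without control replicate 3 (edgeR adjusted p = 0.0706). A window 10167 bp outside Vps45 (chr3:96069729-96069928) had 61.0, 34.6 and 24.6 CPM in RANKL and 0, 10.5 and 8.49 CPM in controls. That window was called higher by edgeR in the main test (2.55 ± 0.56, adjusted p = 0.000127) and in 10 of 11 alternatives, the exception being DESeq2 (adjusted p = 0.0599).

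In 200-bp windows tested by edgeR, rises outnumbered falls at these genes. Of 167 tested windows 16 (9.58%) were higher in RANKL and 5 (2.99%) lower by edgeR, against 10.0% higher and 10.0% lower among all 21618 tested windows. All windows here and below include those beyond 50 kb of any gene end, which the members' windows by rule do not. The 2 sets are therefore not alike in distance, and the shares by distance that follow are the closer comparison. Within 1 kb of a gene end 10 of 97 were higher and 0 lower, where 9.22% of all such windows were higher and 2.92% lower. At an unadjusted p under 0.05, 18 of the 97 were higher and 1 lower by edgeR, and DESeq2 called 0 in either direction. From 1 to 50 kb from a gene end 6 of 70 were higher and 5 lower, against 9.73% higher and 11.4% lower of all. The share of rises near gene ends was thus about that of all genes, and the median log2 fold change there was 0.20 for the members and 0.15 for all. The counts depended on single libraries, as did the shares over all windows. Without RANKL replicate 2, 10 (4.65%) were higher and 2 (0.93%) lower, against 7.38% and 6.21% of all windows. Without RANKL replicate 3 there were 7 (4.73%) and 3 (2.03%), against 7.06% and 7.79%. Without control replicate 1 there were 9 (6.08%) and 1 (0.676%), against 8.69% and 7.90%. Without control replicate 2 there were 8 (5.41%) and 1 (0.676%), against 8.32% and 8.38%. With the experiment as a block 9 were higher and 3 lower, against 8.36% and 8.45% of all windows. The balance did not hold in every setting. DESeq2 called 4 higher and 3 lower, against 5.85% and 4.81% of all windows. Libraries thinned to the same depth gave 2 and 2 of 94, against 4.66% and 6.34% of all windows. In 2-kb windows falls outnumbered rises, with 13 of 309 higher and 28 lower, against 8.37% and 10.2% of all.

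The 10 rises near gene ends were at Vps33a (log2 fold change 1.13), Vps52 (1.00), Rab11fip3 (0.97), Vps18 (0.84), Rab3d (0.78), Rab8b (0.73), Rab1b (0.72), Snx11 (0.67), Rab5c (0.67) and Rab8a (0.45). Vps33a and Vps18 are core subunits of HOPS and CORVET, Vps52 is a subunit of GARP and EARP, and Rab1b acts in transport from the ER to the Golgi. The start window of Vps33a had 28.5, 43.3 and 39.3 CPM in RANKL and 11.5, 21.0 and 19.8 CPM in controls, that of Vps18 89.5, 75.04 and 62.3 CPM in RANKL and 47.3, 34.2 and 39.6 CPM in controls. Neither overlapped between groups. The window of Vps52 had 52.9, 77.9 and 68.8 CPM in RANKL and 32.9, 23.7 and 53.8 CPM in controls, where control replicate 3 reached the RANKL range. Vps33a, Rab11fip3, Rab1b and Snx11 are named after their values were seen.

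Each of these 10 calls was lost without at least 1 library. By edgeR, the calls at Rab3d and Rab11fip3 were lost without any 1 of the 6 libraries (adjusted p = 0.0552 to 0.192 for Rab3d and 0.0629 to 0.215 for Rab11fip3). That at Rab8a was lost without any 1 but control replicate 3 (0.0550 to 0.393), and that at Vps33a without any 1 but RANKL replicate 1 (0.0566 to 0.199). Vps18 lost its call without RANKL replicate 1 (0.0679), RANKL replicate 2 (0.0503) or control replicate 2 (0.108), and Vps52 without control replicate 2 (0.111). Rab5c lost it without RANKL replicate 2 (0.0611), RANKL replicate 3 (0.165) or control replicate 2 (0.119), Snx11 without RANKL replicate 2 (0.252), control replicate 1 (0.0697) or control replicate 2 (0.0901), and Rab1b without RANKL replicate 3 (0.165) or control replicate 3 (0.145). The values for Rab8b are given above. With the experiment as a block, the adjusted p was 0.0549 for Rab5c, 0.0612 for Rab11fip3, 0.0941 for Vps33a, 0.146 for Rab8a and 0.0816 for Rab3d (edgeR). DESeq2 called none of the 10.

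The promoters of 5 of these genes are printed to show the DNA around the called windows, which cover 176 to 200 bp of each stretch. They were chosen after the values were seen, to cover both HOPS subunits, an early endosome Rab, and Rab8a and Rab3d. Rab8a and Rab3d are the exocytosis Rabs whose gene sums were called higher. Rab8b, an exocytosis Rab with a called start window, is not printed, and its promoter matches none of the motifs searched. Each printed stretch runs from 250 bp before to 50 bp after a transcription start, 5′ to 3′ on the gene's strand, from RefSeq on GRCm38.p6. Capitals mark letters that match a searched motif.
Vps33a promoter, chr5:123572966-123573265, minus strand: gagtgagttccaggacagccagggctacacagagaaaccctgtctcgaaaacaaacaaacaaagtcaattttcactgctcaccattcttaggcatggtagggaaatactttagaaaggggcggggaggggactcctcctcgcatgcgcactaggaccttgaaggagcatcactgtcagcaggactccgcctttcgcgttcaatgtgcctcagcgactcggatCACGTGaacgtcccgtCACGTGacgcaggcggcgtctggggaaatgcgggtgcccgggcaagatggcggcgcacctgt
Vps18 promoter, chr2:119288492-119288791, plus strand: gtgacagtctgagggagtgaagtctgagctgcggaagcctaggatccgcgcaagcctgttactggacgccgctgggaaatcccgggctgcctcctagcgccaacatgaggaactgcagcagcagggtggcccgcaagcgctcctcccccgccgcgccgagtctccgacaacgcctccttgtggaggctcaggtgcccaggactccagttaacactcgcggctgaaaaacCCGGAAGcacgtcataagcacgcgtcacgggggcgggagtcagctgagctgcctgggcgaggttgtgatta
Rab8a promoter, chr8:72160950-72161249, plus strand: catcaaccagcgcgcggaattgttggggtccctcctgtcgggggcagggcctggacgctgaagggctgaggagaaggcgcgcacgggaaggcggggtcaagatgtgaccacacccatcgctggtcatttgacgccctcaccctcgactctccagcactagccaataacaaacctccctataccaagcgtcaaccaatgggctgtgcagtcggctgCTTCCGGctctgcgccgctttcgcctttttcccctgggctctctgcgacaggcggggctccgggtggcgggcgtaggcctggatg
Rab5c promoter, chr11:100738166-100738465, minus strand: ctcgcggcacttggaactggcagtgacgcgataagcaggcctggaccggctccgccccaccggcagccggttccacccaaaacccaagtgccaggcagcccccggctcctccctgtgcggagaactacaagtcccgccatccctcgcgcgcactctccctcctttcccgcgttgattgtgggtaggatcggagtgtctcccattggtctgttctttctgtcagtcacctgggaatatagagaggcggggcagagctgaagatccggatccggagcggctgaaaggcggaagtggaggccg
Rab3d promoter, chr9:21918134-21918433, minus strand: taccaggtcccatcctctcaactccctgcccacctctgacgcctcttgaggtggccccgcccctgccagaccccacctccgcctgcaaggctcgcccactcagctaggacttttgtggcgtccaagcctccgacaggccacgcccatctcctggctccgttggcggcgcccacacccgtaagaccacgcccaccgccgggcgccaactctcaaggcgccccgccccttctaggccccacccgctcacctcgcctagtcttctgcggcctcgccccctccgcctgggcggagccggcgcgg
The RefSeq table held 127 promoters of 99 members among 32851 in all. Searched on both strands were CACGTG, the core of the CLEAR element that TFEB binds at lysosomal genes, CCGGAAG, an ETS site, TGANTCA, an AP-1 site, and ATNGATT, the ONECUT core. No motif overlapped another in the printed sequences. CACGTG was in 13.4% of the members' promoters and in 7.15% of all promoters, CCGGAAG in 15.7% and 8.86%, TGANTCA in 5.51% and 7.81%, and ATNGATT in 7.87% and 7.42%. Among promoters of protein-coding genes alone the shares were 7.84% for CACGTG, 11.6% for CCGGAAG, 6.99% for TGANTCA and 6.45% for ATNGATT. Vps33a holds CACGTG at -28 and -12 bp from its start, Vps18 holds the ETS letters at -21 bp, Rab8a holds them on the reverse strand at -35 bp, and the promoters of Rab5c and Rab3d match none of the motifs. The Vps18 match lies outside its called window (chr2:119288501-119288700). These matches describe letters in the printed stretch and say nothing of binding.

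The rises near gene ends were smaller in wider windows. Counts in 2-kb windows around the same centres could be recovered from a second deposited table, and in them the 10 called gene-end windows kept their direction at log2 fold changes of 0.11 to 0.79, against 0.45 to 1.13 in 200 bp. In 2 kb, 3 of those 10 were called higher. Over all tested members' 2-kb windows within 1 kb of a gene end, 3 of 108 were higher and 15 lower with a median of -0.08, and over all genes 2.63% were higher and 13.8% lower with a median of -0.09. The central 200 bp held 36.5%, 33.9% and 36.0% of the 2-kb reads in RANKL libraries and 41.0%, 39.9% and 40.2% in controls, a difference between the groups in how reads sit in the window whose part in these results was not tested. Of the 6 called rises farther out, 3 were called in 2 kb: Rab22a at 3.16, Vps45 at 2.13 and Rab30 at 1.53. Of the 5 called falls, 2 were: Snx18 at -1.56 and Vps37a at -1.0. Summed over 2-kb windows, 6 of 127 members were higher and 14 lower, against 9.38% higher and 12.3% lower of all genes. Of these, 2 higher and 6 lower members were also called in 200 bp. The 6 called genes that lost their call in 2 kb were Rab30 (log2 fold change 0.04), Rab22a (0.11), Rab8a (0.26), Rab40b (0.27), Rab3d (0.46) and Vps50 (-0.47).

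**Figure D4:**
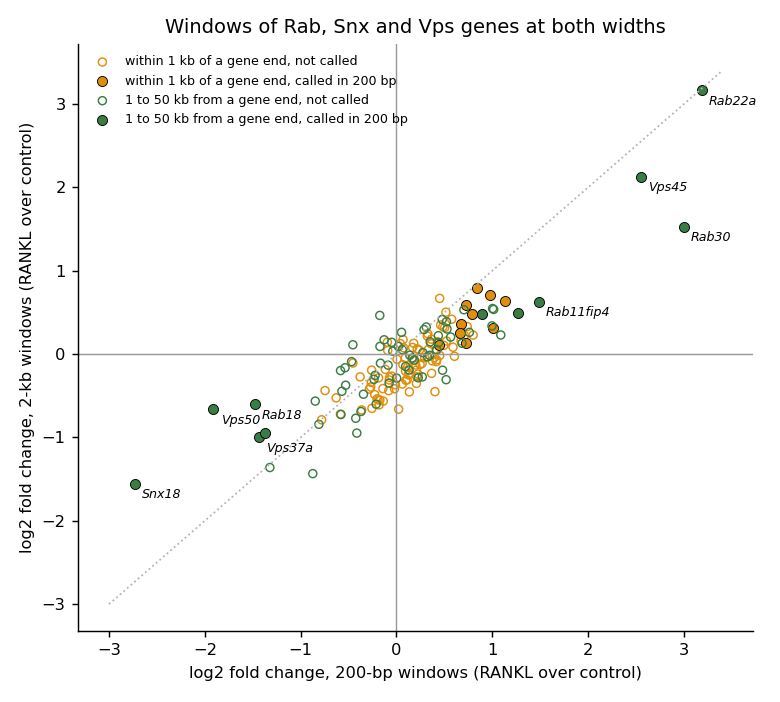
Log2 fold change (RANKL over control) of each tested window of the Rab, Snx and Vps genes in 200 bp (horizontal axis) and in 2 kb (vertical axis), orange within 1 kb of a gene end and green farther out, filled where called in 200 bp; the dotted line marks equal values. Orange filled points lie below the line, between 0.11 and 0.79 in 2 kb, while the windows of Rab22a (3.18 in 200 bp, 3.16 in 2 kb) and Vps45 (2.55 and 2.13) are close to it.

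No member was called when gene-end windows were summed and fitted apart from the rest. Each fit by distance was normalised on its own windows, unlike the fit over all windows, where 10 of 97 gene-end windows were higher. The median log2 fold change over all gene-end windows was 0.149 in the fit over all windows. Over all gene sums within 1 kb, fitted apart, it was 0.005. Fitted on windows within 1 kb alone, 0 of 96 members were higher and 0 lower by edgeR, against 2.70% higher and 3.70% lower of all 8108 genes in that fit, with 10 and 6 members at an unadjusted p under 0.05. Within 5 kb 0 of 104 were higher and 1, Vps13d, lower, against 3.88% and 4.96% of all genes, with 9 and 6 members at an unadjusted p under 0.05. An alternative added after the data were seen was fitted on windows over 1 kb from any gene end alone. In it 4 of 56 members were higher (7.14%) and 6 lower (10.7%), against 9.41% and 8.67% of all 7536 genes. The higher ones were Rab11fip4, Rab22a, Rab30 and Vps45. The lower ones were Rab18, Rab3b, Snx18, Vps37a, Vps50 and Rab17, of which Rab17 was not called in the main test. Over all genes too, calls were more frequent in this fit than in the fit within 1 kb, each normalised on its own windows. In the single fit over all windows, rises were about as frequent within 1 kb (9.22%) as at 1 to 50 kb (9.73%). Falls were less frequent within 1 kb (2.92%) than at 1 to 50 kb (11.4%). For Rab30 the log2 fold change was -0.009 within 1 kb and 0.78 beyond it. Distance also bounds the list: 18 of the members' windows lay 40 to 50 kb from the gene end, and 10 further windows nearest to a member lay 50 to 60 kb away.

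**Figure D5:**
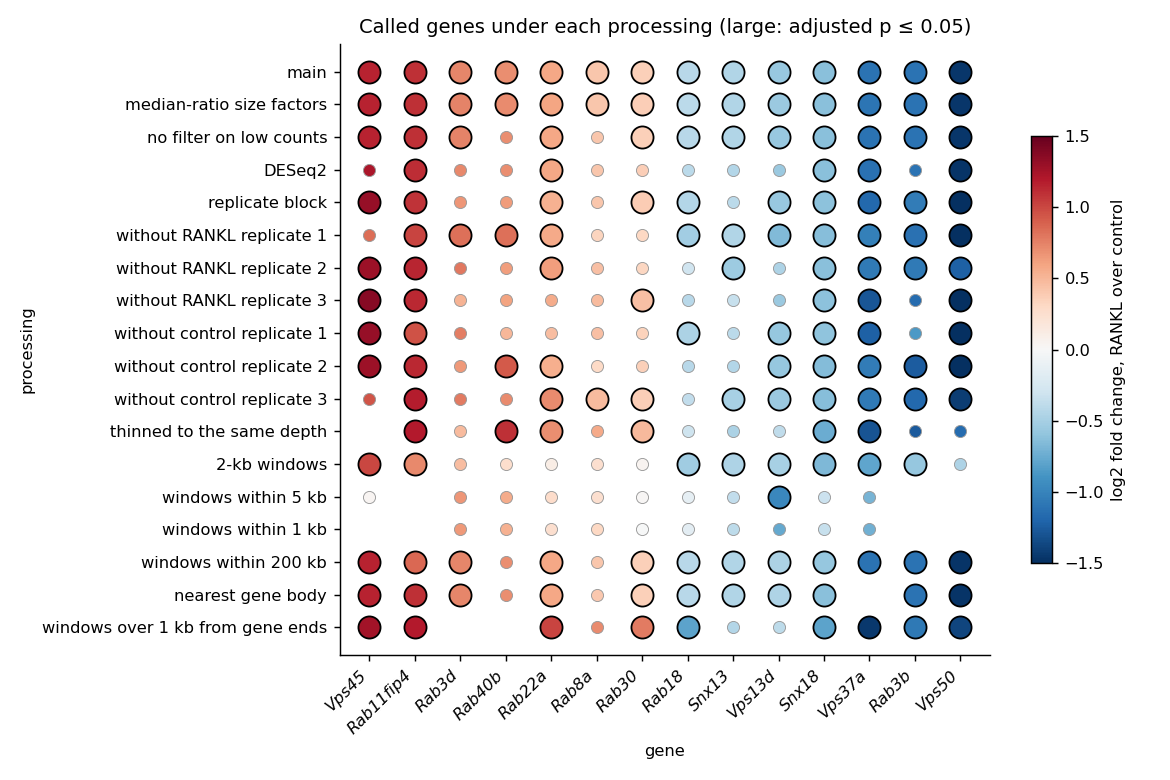
Log2 fold change (colour, RANKL over control) of the 14 called genes (columns) under the main processing and 17 alternatives (rows); large ringed circles mark an adjusted p of at most 0.05, small ones no call, and gaps a gene that could not be tested. Rab11fip4 is ringed in every row where it appears, Snx18, Vps37a and Vps50 in all but 2 of theirs, and Rab8a in 2 alternatives.

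Other genes of vesicle traffic, listed by role and not for how they moved, gave calls both ways as well. Of 125 tested, 12 were higher in RANKL and 10 lower by edgeR (17.6% called, against 15.5% of all genes and 12.2% of the members), with a median log2 fold change of 0.11. Rab regulators had 4 of 48 higher and 7 lower, ESCRT and retromer partners 2 of 20 higher and 2 lower, SNAREs and tethers 2 of 27 higher and 1 lower, and coats and endocytic proteins 4 of 30 higher and 0 lower. Over all tested genes 6.97% were higher and 8.50% lower. At an unadjusted p under 0.05 coats had 7 higher and 1 lower (edgeR), and DESeq2 called 1 higher and 0 lower. The list had 12 higher and 6 lower genes of 125 without RANKL replicate 1, against 5.98% and 6.77% of all genes. It had 5 and 5 of 123 without RANKL replicate 3, against 4.53% and 5.72%. There were 6 and 8 of 120 without control replicate 1, against 4.68% and 5.61%. Without control replicate 2 there were 5 and 7 of 124, against 5.04% and 5.90%. Without control replicate 3 there were 7 and 8 of 125, against 6.11% and 6.41%. With the experiment as a block the list had 6 and 7 of 125, against 5.66% and 7.16% of all genes. DESeq2 called 2 and 5 of 125, against 3.26% and 3.91%. Libraries thinned to the same depth gave 6 and 3 of 105, against 3.98% and 4.64%. In 2-kb windows 7 of 125 were higher and 14 lower, and all genes also had fewer rises than falls, 9.38% and 12.3%. Named after their values were seen, as called with every library left out, were 5 of them. Snap23, a SNARE of plasma membrane fusion, averaged 86.2 ± 13.2 CPM in RANKL and 34.9 ± 1.5 CPM in controls (SD, n = 3 each), a log2 fold change of 1.26 ± 0.28. Ehd1, which scissions recycling tubules, averaged 193 ± 33.5 CPM in RANKL and 111 ± 11.4 CPM in controls (SD, n = 3 each; 0.73 ± 0.17). Chmp4c, an ESCRT-III subunit, averaged 117 ± 6.8 CPM in RANKL and 219 ± 13.2 CPM in controls (SD, n = 3 each; -0.92 ± 0.16). Tbc1d4, a GTPase-activating protein of Rabs, averaged 149 ± 28.7 CPM in RANKL and 255 ± 22.7 CPM in controls, and Gdi2, which extracts Rabs from membranes, 137 ± 10.2 CPM in RANKL and 212 ± 26.1 CPM in controls (SD, n = 3 each). Their log2 fold changes were -0.69 and -0.64, and none of the 5 overlapped between groups.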

How the data were processed

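Bulk ATAC-seq of 3 RANKL and 3 control libraries (read length 38 bp) was used. The authors deposited raw read counts in 200-bp windows, which were the main measurement, and a score per 2-kb window that has mean 0 and SD 1 in each library. Its values are whole counts, raised by 1, put on a natural log scale and standardised per library: the 2-kb counts recovered for 55050 windows lay within 0.0058 of a whole number and summed to 883695 to 2449376 per library. Per the submitters' processing notes, MACS2 2.2.7, DESeq2 1.34.0, BWA 0.7.17, fastp 0.20.1 and Picard were involved, on builds named mm10 and GRCm38, with no role given. How windows were chosen, and whether Tn5 cut positions were shifted or duplicates removed, is not given in the sources used here. Window totals of 322173 to 976881 counts limit precision, and low windows could not be tested.

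Windows were assigned to the nearest protein-coding gene end within 50 kb (RefSeq positions, GRCm38.p6), counts were summed per gene, and edgeR 4.0.16 under R 4.3.3 tested all genes and all windows (TMM, filterByExpr, robust quasi-likelihood fit without covariates). Adjustment was by Benjamini-Hochberg over the whole table with a threshold of 0.05. SE is that of the log2 fold change, and CPM uses the library sizes of the table tested. DESeq2 1.42.0 and the other alternatives, with each library left out in turn, were run as well, and scripts were tested on simulated data. The labels number the experiments 1 to 3 in both groups, so a block by number was an alternative. Libraries of the same number did not deviate together (correlations of deviations from the group means across genes, -0.05 to 0.009). Labels do not say that separate animals were used, so p-values measure the spread between experiments on 1 line.

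The genes and lists were chosen with earlier results of these data known. Named genes were all called members, 21 members of interest, the largest changes among well covered called windows and members with windows called in both directions; for any other gene the text says that its values were known when it was named. Roles were listed by hand from general knowledge. Lists covered markers of the small-intestinal epithelium, M cells, haematopoietic cells, mesenchyme, endothelium and neural cells, and other vesicle traffic genes.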

Additional observations from a re-analysis of the deposited data

How the results depend on the processing

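Against 7 higher and 7 lower genes and 16 higher and 5 lower windows, DESeq2 called 2 and 3 genes and 4 and 3 windows, the replicate block gave 4 and 6 genes and 9 and 3 windows, and thinning to the same depth gave 4 and 2 genes and 2 and 2 windows. Leaving out each library gave 2 to 6 higher and 3 to 7 lower genes, and 7 to 17 higher and 1 to 7 lower windows. The same fits called 4.53% to 6.11% of all genes higher and 5.61% to 6.77% lower. Of all windows they called 7.06% to 8.88% higher and 6.21% to 8.38% lower. In 2-kb windows 6 genes were higher and 14 lower, and 13 windows higher and 28 lower. Windows within 5 kb gave 0 and 1 genes, those within 1 kb 0 and 0, those over 1 kb from gene ends 4 and 6, those within 200 kb 6 and 9, and the nearest gene body 7 and 9. Median-ratio size factors gave 7 and 7 genes, and no filter on low counts 6 and 8. The cause of these changes was not tested, other than that the distance limits change which windows enter and are normalised on, and thinning removes counts.

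Of the 14 called genes, Rab11fip4 stayed called in 15 of 15 alternatives, Snx18 in 15 of 17, Vps37a in 14 of 16, Vps50 in 13 of 15, Rab22a in 12 of 17, Vps13d in 11 of 17, Rab3b and Vps45 in 11 of 15, Rab18 and Rab30 in 9 of 17, Snx13 in 8 of 17, Rab3d in 5 of 16, Rab40b in 4 of 16 and Rab8a in 2 of 17. The replicate block ended the calls of Rab8a (log2 fold change 0.42), Rab3d (0.66), Rab40b (0.64) and Snx13 (-0.41) and of no other gene. Of the 21 called windows 4 stayed called in every alternative that could test them (at Snx18, Rab22a, Rab30 and Vps37a), 9 were lost in most of theirs and 0 reversed.

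Some genes of interest that the main test left uncalled were called by edgeR in an alternative. Rab10 was lower in 2-kb windows and within 200 kb, and Rab5a and Vps13b were lower in 2-kb windows. Rab27b was lower within 200 kb, and both Rab27b and Vps13b by the nearest gene body. Rab17 was lower over 1 kb from gene ends, and Rab5c was higher without RANKL replicate 1. Among called genes only Rab30 changed sign, to -0.0086 within 1 kb. The uncalled genes that changed sign stood between -0.34 and 0.18 in the main test. With DESeq2 Rab27b had 0.053 and Vps35 0.025, and with the replicate block they had 0.115 and 0.081. With thinning Rab8b had -0.084, Snx1 0.16 and Vps13b 0.032. In 2-kb windows Rab11fip1 had 0.0075, Rab8b -0.081, Vps26a -0.063, Vps35 0.27 and Vps4b 0.20. Within 5 kb Rab10 had 0.095 and Vps4b 0.052, and within 1 kb Rab10 had 0.075, Snx1 0.10 and Vps4b 0.028. Over 1 kb from gene ends Rab27b had 0.027, Rab7 -0.0060 and Rab8b -1.36. Leaving out each library moved Rab11a between -0.71 and 0.10, Rab27b between -0.44 and 0.23, Rab7 between -0.0075 and 0.35, Rab8b between -0.060 and 0.15, Snx1 between -0.16 and 0.015, Vps26a between -0.087 and 0.39, Vps35 between -0.12 and 0.23, and Vps4b between -0.14 and 0.078.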
